A study of Mus musculus with 13 samples.

Results

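Sites bound by STAG1 without STAG2 were a small group of all STAG1 sites. They were sites with a STAG1 peak in both quiescent libraries and in at least 1 proliferating library, and with no STAG2 peak in any of 4 STAG2 libraries. Of 112325 sites on chromosomes 1 to 19, made by merging the peaks of 12 libraries that shared at least 1 bp, 561 met this rule. They made up 2.07% of the 27086 sites that met its STAG1 terms alone. The mirrored rule, STAG2 without STAG1, kept 406 sites, 1.44% of its 28122. The count moved when single libraries were left out: it was 1388 and 1263 without quiescent STAG1 replicate 1 and 2, and 1261 without proliferating STAG2 replicate 1. Leaving out such a library also loosens the rule, so part of the rise is built in. STAG1 and STAG2 peaks chose the sites, so the STAG1 values below describe them and carry no test.

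The peaks came from chromatin immunoprecipitation followed by sequencing in NU1 cells, wild-type mouse urothelial cells that became immortal spontaneously on passaging. Antibodies against STAG1, STAG2 and CTCF were each used on quiescent and on proliferating cells, with 2 biological replicates per group, which gave 6 groups. Quiescent cells had been grown to confluence and then kept in the same medium with 1 uM rosiglitazone, an activator of PPAR gamma, and 0.5 uM erlotinib, an inhibitor of the EGF receptor kinase. Quiescence therefore combined confluence and both drugs, which cannot be told apart, and all groups came from a single cell line. Lists held between 34281 and 71757 peaks per library. The number of reads behind them is unknown, and peak lists do not measure expression, so the identity of the cells could not be checked against marker genes.

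Cohesin is the ring complex that holds sister chromatids together and forms loops of DNA. Each ring of a somatic cell carries either STAG1 or STAG2, close relatives that help it bind DNA. CTCF is a zinc finger protein that marks many loop anchors and stops cohesin there. STAG2 is often mutated in bladder cancer, and STAG1 is the subunit that remains in cells that have lost it. Sites with STAG1 peaks and no called STAG2 peak show where the peak lists of the subunits part.

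A total of 5 promoters overlapped these sites, 0.0249% of the 20085 promoter windows searched. Below are the 4 windows that carry a motif or the strongest STAG1 summit. They are RefSeq sequences of GRCm38.p6, the assembly also called mm10, and run from 250 bases before a gene's start to 50 after it. Capitals mark the matches found on either strand to CCAAT, the site of the factor NFY, and to CCGGAAG, a site of ETS factors.
Psenen, second start, chr7:30563155-30563454, minus strand: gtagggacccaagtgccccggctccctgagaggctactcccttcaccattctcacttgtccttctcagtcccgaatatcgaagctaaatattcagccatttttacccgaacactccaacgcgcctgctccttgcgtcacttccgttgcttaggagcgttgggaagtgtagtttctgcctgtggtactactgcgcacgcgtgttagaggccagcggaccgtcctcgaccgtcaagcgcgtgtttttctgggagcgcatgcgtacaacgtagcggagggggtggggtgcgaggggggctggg
Psenen, first start, chr7:30563578-30563877, minus strand: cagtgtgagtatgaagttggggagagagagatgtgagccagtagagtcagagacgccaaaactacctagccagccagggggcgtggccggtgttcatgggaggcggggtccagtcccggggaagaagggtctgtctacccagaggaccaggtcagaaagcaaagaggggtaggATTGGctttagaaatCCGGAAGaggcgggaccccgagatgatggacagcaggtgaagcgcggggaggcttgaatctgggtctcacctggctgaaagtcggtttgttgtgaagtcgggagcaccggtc
Zfp738, chr13:67683463-67683762, minus strand: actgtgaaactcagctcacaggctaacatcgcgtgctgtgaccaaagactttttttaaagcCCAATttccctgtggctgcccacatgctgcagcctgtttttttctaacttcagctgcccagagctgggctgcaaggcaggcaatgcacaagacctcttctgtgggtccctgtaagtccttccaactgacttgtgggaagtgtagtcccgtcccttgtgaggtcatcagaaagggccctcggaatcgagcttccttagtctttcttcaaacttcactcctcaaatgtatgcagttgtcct
Lhx9, chr1:138842395-138842694, minus strand: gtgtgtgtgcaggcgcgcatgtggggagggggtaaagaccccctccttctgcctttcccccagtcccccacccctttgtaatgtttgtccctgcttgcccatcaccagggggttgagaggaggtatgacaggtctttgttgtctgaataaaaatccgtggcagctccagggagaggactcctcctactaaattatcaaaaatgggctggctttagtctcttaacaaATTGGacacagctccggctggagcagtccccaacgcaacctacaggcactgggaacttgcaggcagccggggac

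The letters CCAAT were in 3 of these 5 promoter windows, against 38.1% of all promoter windows, and CCGGAAG in 1 of 5, against 11.9%. Windows were searched whole, and the CCAAT matches at the first Psenen start and at Zfp738 lay outside the STAG1 site. The windows of Psenen and U2af1l4 all lie at 1 member site, so the 5 are not separate cases. With 5 promoters a share cannot be read. The CTCF core motif was in 0 of 5 member promoters and in 2.39% of all windows. The letters GGGCGG (SP and KLF factors), TGANTCA (AP-1), CACGTG (E-box) and TGACGTCA (CRE) were also in 0 of 5, against 47.0%, 7.06%, 7.89% and 2.30% of all windows. The NRF1 motif was in 0 of 5 and in 1.34% of all windows. The window not printed belongs to U2af1l4, a splicing factor gene on the other strand, and overlaps the second Psenen start.

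The site at Psenen shows what a strong member looked like. Psenen encodes a subunit of gamma-secretase, the protease that cuts Notch and the amyloid precursor. Its site, chr7:30562851-30563694, had STAG1 fold enrichments of 16.3 and 20.9 in quiescent cells and 13.6 and 23.7 in proliferating cells. No CTCF library had a peak there. The mean STAG1 summit lay 30 bp downstream of the second start and 453 bp downstream of the first, so it fell inside the window printed first. These folds, like those below, are the authors' own peak values and rank peaks only within a list.

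Hk2 had the other strong site without CTCF. Hk2 encodes hexokinase 2, which starts glycolysis by phosphorylating glucose. The site lay inside the gene at chr6:82769734-82770338, 4116 bp from its start. STAG1 fold enrichment was 14.1 and 14.1 in quiescent cells and 17.0 and 18.5 in proliferating cells. The next members without CTCF lay 2233 bp from the start of Psmc1, which encodes an ATPase of the proteasome cap, inside Mast4, a kinase gene, and inside Sgms1, which encodes a sphingomyelin synthase. Their STAG1 folds ranged from 9.73 to 15.5 over the 4 libraries.

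Most of the highest ranked members also had CTCF, at varied strength, as did most members of any rank. Only 12.5% of all members, and 4.6% of all STAG1 sites under the same STAG1 terms, had no CTCF peak in any library. The first member by mean STAG1 percentile lay inside Otud7a, a deubiquitinase gene, at chr7:63751915-63752618. STAG1 fold there was 14.0 and 17.5 in quiescent cells and 26.9 and 19.5 in proliferating cells, and CTCF fold was 9.48 and 17.0 in quiescent cells and 12.0 and 8.98 in proliferating cells. A STAG2 peak lay 548 bp away. At the site 31138 bp from Sncaip, which encodes the synuclein partner synphilin, STAG1 fold was 15.5 and 23.0 in quiescent cells and 18 and 18.5 in proliferating cells. CTCF fold there was 7.48 and 5.49 in quiescent cells and 14.5 and 8.98 in proliferating cells.

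The highest CTCF folds among the 10 highest ranked members were inside Ntm, which encodes the neural adhesion molecule neurotrimin. That site, chr9:29643172-29643771, had STAG1 folds of 11.0 and 14.5 in quiescent cells and 11.0 and 19 in proliferating cells. Its CTCF folds were 31.9 and 26.4 in quiescent cells and 29.9 and 29.9 in proliferating cells. A second member inside Ntm, chr9:29661341-29661947, had STAG1 folds of 9.48 and 5.99 in quiescent cells and 5.99 and 5.49 in proliferating cells. Bcl6, the gene of a transcriptional repressor of germinal centre B cells, had a site 2169 bp outside the gene at chr16:23962286-23962881. STAG1 fold was 12.5 and 13.0 in quiescent cells and 16.5 and 13.0 in proliferating cells, with CTCF in all 4 libraries at folds from 6.99 to 12.0. The sites near Haao, an enzyme gene of tryptophan breakdown, near Ankrd60, near Sorl1, a sorting receptor gene, and inside Ninj2, an adhesion gene, completed the 10 highest, with STAG1 folds from 10.3 to 21.0. The sites near Sorl1 and inside Ninj2 each had CTCF in 3 of 4 libraries.

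**Figure D1:**
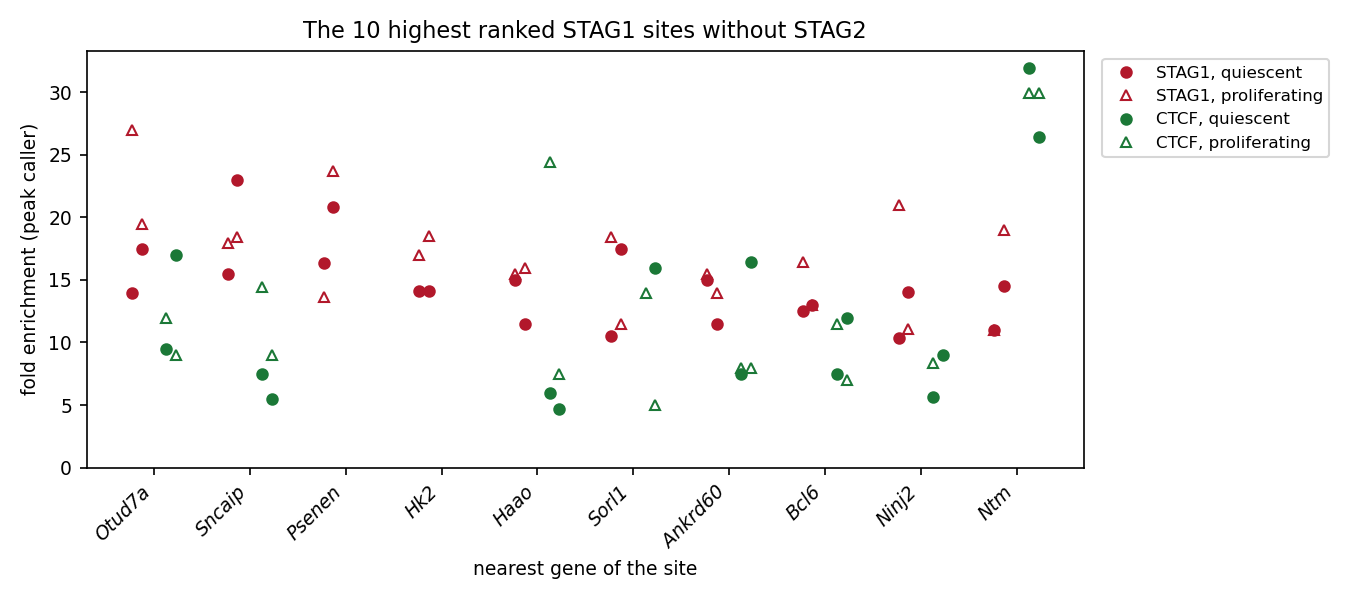
STAG1 and CTCF fold enrichment (vertical axis, peak caller's value, no unit) at the 10 highest ranked STAG1 sites without STAG2, by nearest gene. Each point is 1 library with a peak, filled for quiescent and open for proliferating cells; the sites at Psenen and Hk2 have no CTCF point, and the highest CTCF points are those at Ntm, from 26.4 to 31.9.

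Across all 561 members STAG1 binding was weaker than at the sites where both subunits were always found. The median STAG1 fold was 6.47 and 6.49 in quiescent cells, and 7.67 and 6.49 in proliferating cells at the 452 and 437 members with a peak there. At the 21383 sites with peaks in all 8 STAG libraries it was 12.1 and 13.3 in quiescent and 13.5 and 15.5 in proliferating cells. A peak in all 8 is a stricter demand than the members had to meet. At all 27086 sites under the same STAG1 terms it was 10.0 and 11.0 in quiescent and 12.5 and 13.0 in proliferating cells. Members ranged from 2.63 to 24.5 in quiescent and from 2.38 to 26.9 in proliferating cells. The mean percentile of fold within a list was 35.2 and 35.1 in quiescent cells and 42.7 and 41.7 in proliferating cells at members with a peak. It was 63.0 and 63.6 in quiescent and 63.1 and 74.7 in proliferating cells at the sites with both. The proliferating means again cover only 452 and 437 members, so the states cannot be compared by these means. Over the 4 libraries the mean percentile averaged 38.7 at members, and 65.5 at the 989 members found with 20000 peaks per list. Percentiles were taken within the full lists before that cut. The cut removes low percentiles by itself, so 65.5 cannot be read as stronger binding. Median STAG1 peak widths were 395 and 404 bp in quiescent and 440 and 433 bp in proliferating cells at members, against 621 and 631 bp, then 638 and 745 bp, at the sites with both. In proliferating cells 328 members had STAG1 in both libraries, 124 in replicate 1 alone and 109 in replicate 2 alone.

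Absence of STAG2 at these sites means absence of a called peak. The nearest STAG2 peak of any library lay at a median of 8828 bp, with quartiles of 2350 and 29749 bp. It lay within 1000 bp at 78 members (13.9%) and within 10000 bp at 295 (52.6%). The members with one this near included those inside Otud7a (548 bp), Mast4 (72 bp) and Ninj2 (691 bp), near Psmc1 (613 bp) and at Rpl7 (237 bp) and Lhx9 (54 bp), and among those named further on the sites at Clec3b (438 bp) and Tecpr1 (146 bp), near Pramel33 (58 bp) and inside Abcb9 (11 bp), Krt87 (931 bp) and Zadh2 (654 bp). A rule with that margin would leave them out. A further 1010 sites met the STAG1 terms and were kept out by 1 STAG2 library alone, of which proliferating STAG2 replicate 1 kept out 698, with a median STAG2 fold of 6.31. The highest ranked of the 1010 lay near Nkx6-1, a homeobox gene. Its STAG1 folds were 26.0 and 18 in quiescent and 23.0 and 25.4 in proliferating cells, and its only STAG2 peak, in proliferating replicate 1, had a fold of 7.98. Next came sites at Mbp, the myelin basic protein gene, and at Rgs9, a regulator of G protein signalling, both with STAG2 in proliferating replicate 2, then near Gdap1 and Dapl1. The lowest ranked members lay near Pramel33, inside Abcb9, near Fam174b and Msrb2, and 357 bp from the start of Postn, which encodes the matrix protein periostin. At Postn STAG1 fold was 2.83 and 3.34 in quiescent and 3.50 and 3.67 in proliferating cells. The site near Msrb2 paired weak STAG1, at most 4.25, with CTCF folds from 16 to 30.7.

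CTCF peaks entered the merging of sites but not the choice of members, and with the full lists CTCF was found at most STAG1 sites without STAG2. A CTCF peak overlapped 57.4% and 78.8% of them in quiescent cells and 72.0% and 63.3% in proliferating cells, and the exact binomial 95% intervals together ran from 53.2% to 82.1%. At the 406 STAG2 sites without STAG1, chosen by the mirrored rule, these shares were 16.3% and 20.2% in quiescent and 20.7% and 23.9% in proliferating cells. At the sites with both subunits in all 8 STAG libraries they were 88.5% and 91.9% in quiescent and 93.4% and 91.8% in proliferating cells. In every CTCF library the members lay between the other sets. The members' mean share over the 4 libraries was 67.9%. It was 67.8% at the 565 members found when the 8 STAG lists alone were merged, and 42.5% at those found with 20000 peaks per list, CTCF included.

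Over the 4 CTCF libraries the share at STAG1 sites without STAG2 exceeded that at STAG2 sites without STAG1 by 47.6 percentage points on average (SD 9.02, range 39.4 to 58.6). An exact sign-flip permutation test gave p = 0.125, two-sided, which is the smallest that 16 arrangements can give, so this design could not reach 0.05. The share at STAG1 sites without STAG2 was 23.5 points lower than at the sites with both (difference -23.5, SD 8.07, range -31.1 to -13.1), again with an exact permutation p = 0.125. Both had a Benjamini-Hochberg adjusted p of 0.25 over 4 exact permutation tests. With 20000 peaks per list these differences were 28.3 and -41.5 points. Intervals of single libraries cover counting error only.

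**Figure D2:**
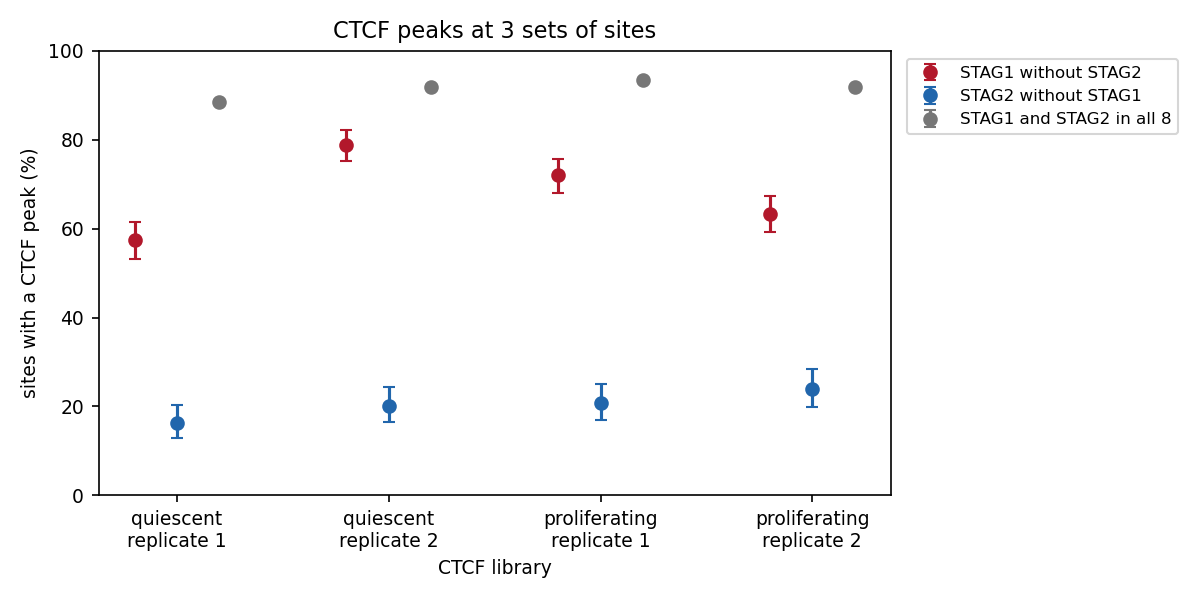
Share of sites with a CTCF peak (vertical axis, %) in each of the 4 CTCF libraries, for STAG1 sites without STAG2, STAG2 sites without STAG1, and sites with both in all 8 STAG libraries; bars are exact binomial 95% intervals. In each library the STAG1 sites without STAG2, at 57.4% to 78.8%, lie above the STAG2 sites without STAG1 and below the sites with both.

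Counted over libraries, 247 members (44.0%) had CTCF in all 4 and 70 (12.5%) in none, while 78.7% and 4.6% of all STAG1 sites under the same STAG1 terms did. Another 59 members had CTCF in 1 library, 79 in 2 and 106 in 3. Of STAG2 sites without STAG1, 10.6% had CTCF in all 4 libraries and 66.7% in none. Where a CTCF peak was present, its summit lay close to that of STAG1, at a median distance of 37 and 40 bp in quiescent and 36 and 48 bp in proliferating cells. At the sites with both subunits it was 34 and 34 bp in quiescent and 34 and 36 bp in proliferating cells. The summits of the STAG1 replicates themselves differed at members by a median of 35 bp in quiescent and 37 bp in proliferating cells.

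No difference in CTCF between the states was detectable at these sites. The share was 68.1% ± 15.1 in quiescent and 67.6% ± 6.18 in proliferating cells (SD, n = 2 each), a difference of 0.446 percentage points (exact permutation p = 1, two-sided, adjusted p = 1). The smallest p that 6 arrangements can give is 0.333. The quiescent replicates were the farthest apart of the 4 libraries and enclosed both proliferating ones, and they also had the shortest and the longest CTCF list, with 51835 and 71757 peaks. At the 247 members with CTCF in all 4 libraries the mean CTCF percentile was 50.2 and 64.5 in quiescent and 58.3 and 54.0 in proliferating cells, a difference of 1.16 (exact permutation p = 1, adjusted p = 1). CTCF was in both quiescent libraries and neither proliferating one at 15 members (2.67%), and in both proliferating libraries and neither quiescent one at 13 (2.32%). Among all STAG1 sites under the same terms these shares were 0.377% and 1.30%. The highest ranked of the 15, named after their values were seen, lay far from genes, 523696 bp from Btbd3 and 47889 bp from Ctla4, the gene of a T cell inhibitory receptor. Near Ctla4 the CTCF folds were 5.67 and 16.6 in quiescent cells.

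CTCF and gene starts were more frequent the more STAG2 libraries had a peak. From 0 to 4 STAG2 libraries the STAG1 sites numbered 561, 1010, 1241, 2017 and 22257. The mean share with CTCF was 67.9%, 74.4%, 79.8%, 79.3% and 90.5%, and the share within 1 kb of a gene start was 3.39%, 5.05%, 8.94%, 13.7% and 42.3%. Members thus stood at the end of a gradation, with the CTCF share at 2 and at 3 libraries nearly level. STAG1 strength changed along the same steps. Its median fold was 6.47, 6.86, 6.99, 7.49 and 11.7 in quiescent replicate 1. In proliferating replicate 1 it was 7.67, 9.98, 9.48, 9.98 and 13.5. Site width differed too, with a median of 600 bp for members and 1007 bp for the sites with peaks in all 8 STAG libraries. When peaks were matched by summits with 100 bp to each side, the gene start shares of these sets were 19.4% and 36.6%. The parts of STAG1 strength and of site width in the gradation were not tested.

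**Figure D3:**
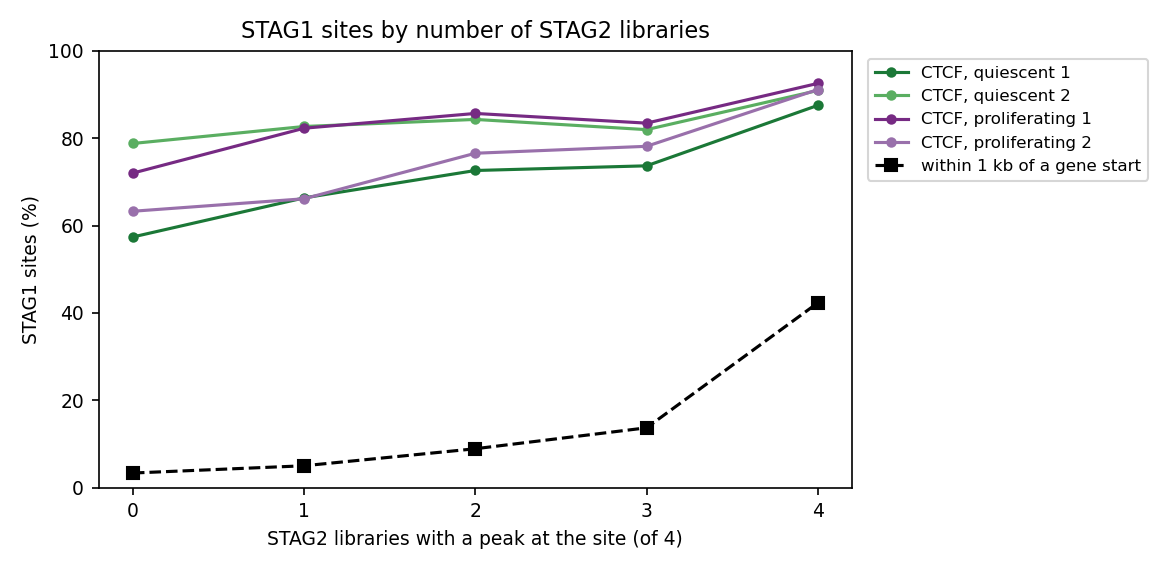
Share of STAG1 sites (vertical axis, %) with a CTCF peak in each CTCF library (solid lines) and within 1 kb of a gene start (dashed), by the number of STAG2 libraries with a peak (horizontal axis). Members are the points at 0, and the gene start share there is 3.39%, against 42.3% at 4.

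The CTCF share was higher at stronger STAG1 sites where both subunits were present, while among members it stayed between 63.6% and 69.6%. Sites were put in bins of 20 points by their mean STAG1 percentile in the quiescent libraries. In the lowest bin 63.6% of 114 members and 70.0% of 1361 sites with both had CTCF on average. In the next bins the members' shares were 68.7%, 69.6% and 68.2%, with 242, 157 and 48 sites, while those of the sites with both were 77.9%, 88.2% and 96.3%. The uppermost bin held 0 members. Averaged within these bins, the difference between members and sites with both was -12.9 points (SD 7.71, range -19.4 to -2.18; exact sign-flip permutation p = 0.125, the smallest possible).

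**Figure D4:**
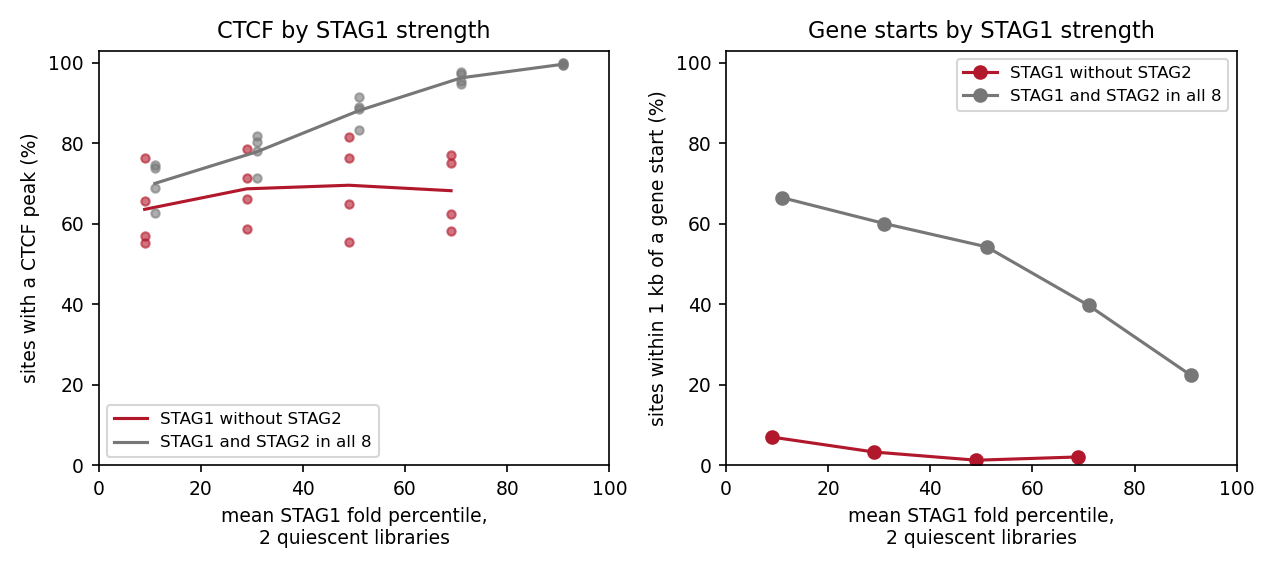
Share of sites with a CTCF peak (left, %; points are the 4 CTCF libraries, lines their mean) and within 1 kb of a gene start (right, %), in bins of 20 points of the mean STAG1 fold percentile of the 2 quiescent libraries, for STAG1 sites without STAG2 and sites with both. Members' CTCF means stay between 63.6% and 69.6%. Those of the sites with both reach 96.3% in the bins that hold members, and 99.7% in the uppermost bin, which holds none. Members are at gene starts at 7.02% or less in every bin that holds any.

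STAG1 sites without STAG2 lay far from gene starts. Of 561 members, 19 (3.39%, exact binomial 95% interval 2.05% to 5.24%) were within 1 kb of the start of a protein-coding gene, against 91 of 406 STAG2 sites without STAG1 (22.4%, interval 18.4% to 26.8%) and 41.8% of the sites with both. The share was 36.5% of all STAG1 sites under the same terms. For genes of unknown strand both ends counted as starts in these shares and in the distances below. With listed starts alone the share was 13 members (2.32%), 16.5% of STAG2 sites without STAG1 and 33.3% of sites with both. The median distance to the nearest start was 29691 bp for members, 11426 bp for STAG2 sites without STAG1 and 3997 bp for the sites with both. More than 50 kb from any start were 35.8% of members, 19.7% of STAG2 sites without STAG1 and 13.3% of sites with both. Members inside a gene made up 47.2%, against 55.9% and 70.2% of those other sets. Site width moved with this result, since a member was 600 bp wide at the median and a site with both 1007 bp. When peaks were matched by summits with 100 bp to each side, the share at gene starts was 19.4% of 737 members, 36.5% of STAG2 sites without STAG1 and 36.6% of sites with both.

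**Figure D5:**
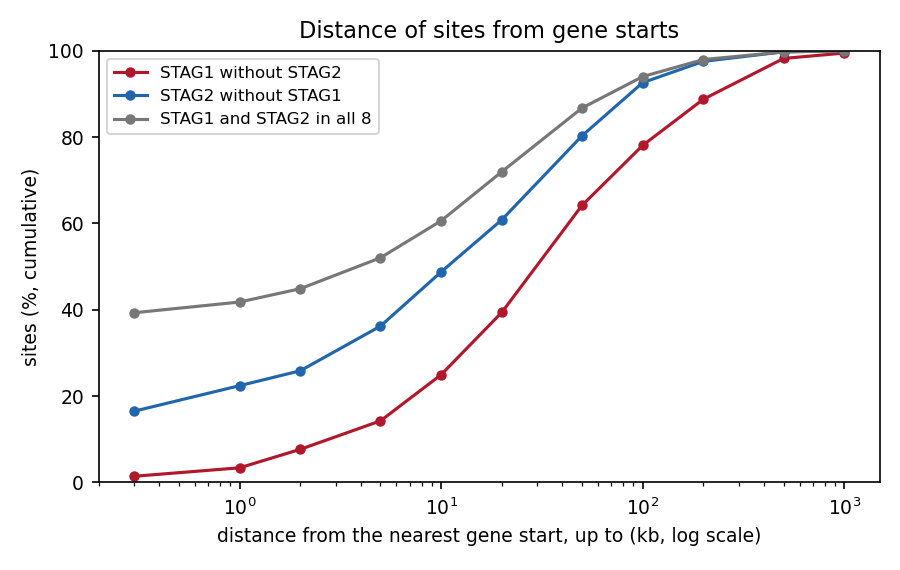
Cumulative share of sites (vertical axis, %) against distance from the nearest gene start (horizontal axis, kb, log scale) for the same sets as in the plot of CTCF shares. The curve of STAG1 sites without STAG2 lies lowest, with 3.39% of sites at 1 kb, against 22.4% for STAG2 sites without STAG1 and 41.8% for sites with both. Both ends of genes of unknown strand count as starts.

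The members at gene starts were few, and 8 of the 19 had no CTCF peak. Of the 70 members with no CTCF peak 11.4% were within 1 kb of a start and 64.3% inside a gene, against 2.02% and 48.6% of the 247 with CTCF in all 4 libraries. Sites with both subunits showed a like pattern over the bins of STAG1 percentile. Their lowest bin had 66.5% at gene starts and 14.1% without CTCF, and their uppermost bin 22.4% and 0.0438%. The share without CTCF at gene starts alone was not counted for the other sets, so it cannot be called particular to members. Alkbh8, a transfer RNA modification gene, had STAG1 folds of 5.99 and 7.76 in quiescent cells and 7.98 in proliferating replicate 2, with no CTCF peak. At Rpl7, which encodes a protein of the large ribosomal subunit, they were 5.00 and 6.75 in quiescent and 4.20 and 9.0 in proliferating cells, also with no CTCF peak. Lhx9, a homeobox gene of gonad and brain development, had 4.49 and 5.49 in quiescent cells and 5.49 in proliferating replicate 1 alone. Zfp738, a zinc finger gene, had 6.04 and 6.80 in quiescent cells and 6.38 in proliferating replicate 2, and CTCF in 1 library of each state. Near Togaram2 and at Vps35l, which encodes a subunit of the endosomal retriever complex, all 4 CTCF libraries had a peak, with CTCF folds of 23.0 and 23.0 in quiescent and 34.4 and 38.4 in proliferating cells for Togaram2. The other sites of the 10 highest at gene starts belonged to Clec3b, Lactbl1, Gm29825 and Tecpr1. For Togaram2, Vps35l, Clec3b and Rpl7 the strand was not known and either end of the gene was taken as its start.

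Few genes of any list had one of these sites. Over all 20665 protein-coding genes, 21 had a member within 1 kb of the start (0.102%) and 274 had a member in the gene or within 1 kb of it (1.33%). For STAG2 sites without STAG1 these shares were 0.469% and 1.23%, and for sites with both 45.2% and 55.1%. Of 20 gene lists, 3 had a member at a gene start, namely the Zfp genes (Zfp738, 1 of 386), the ribosomal proteins (Rpl7, 1 of 76) and the fibroblast markers (Postn, 1 of 15). Inside a gene or within 1 kb of it, the mitotic list had 1 of 30 (Ccnb2), the replication and G1/S list 1 of 38 (Rrm2), the cohesin list 1 of 16 (Smc1b, whose site is also nearest to Fam118a) and the keratins 2 of 53 (Krt87 and Krt72). The Zfp genes had 3 of 386, Zfp738 with Zfp217 and Zfp536. Most lists are too short to be read against 1.33%.

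The site inside Rrm2, the gene of the small subunit of ribonucleotide reductase, had STAG1 folds of 7.66 and 5.33 in quiescent and 4.95 and 6.76 in proliferating cells. CTCF folds there were 15.3 and 27.9 in quiescent and 15.3 and 20.3 in proliferating cells. The site inside Ccnb2, the gene of the mitotic cyclin B2, had STAG1 folds of 7.98 and 7.99 in quiescent and 7.48 and 4.99 in proliferating cells, with CTCF in all 4 libraries. No member was at or in any gene of the lists for DREAM and MuvB subunits (13 genes), CDK inhibitors and growth arrest (20), urothelial differentiation (25), basal urothelium (15), PPAR gamma targets (21), the EGF receptor and MAPK response (31), Hox genes (39), clustered protocadherins (57), histones (67), telomere genes (14), olfactory receptors (1104), immune cells (16) or neurons (18). Sites with both subunits lay at 45.2% of all gene starts. They lay at those of 31 of 31 EGF receptor and MAPK genes, 19 of 20 CDK inhibitor genes and 20 of 25 urothelial differentiation genes. Lower counts were 16 of 39 Hox genes, 3 of 57 clustered protocadherins, 3 of 16 immune cell markers and 1 of 1104 olfactory receptors. Others were 8 of 15 for basal urothelium, 7 of 15 for fibroblast markers, 12 of 30 for the mitotic list and 8 of 21 for PPAR gamma targets.

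Members were spread thinly over the genome. Of the 274 genes with a member, 266 had 1 and 8 had 2, among them Zadh2, Ppp2r2c, a phosphatase subunit gene, Celf4, an RNA binding protein gene, and Snd1. Of windows of 1 Mb with a member, 400 held 1 and 64 held 2. The window with the most, 70 to 71 Mb of chromosome 9, held 5, inside Myo1e, an unconventional myosin gene, inside Ccnb2, at 2 places in or near Fam81a, and near Adam10, a cell surface protease gene. Their STAG1 folds ran from 4.99 to 12.5 over the libraries with a peak. The window from 94 to 95 Mb of chromosome 15 held 4, of which 2 lay inside Tmem117, and 8 windows held 3, the one with the fewest sites with both subunits being 61 to 62 Mb of chromosome 2, with the genes Tank, Psmd14 and Tbr1.

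Their share of STAG1 sites varied by chromosome. It was 1.15% on chromosome 11, 1.18% on chromosome 7 and 1.34% on chromosome 17, and 3.33% on chromosome 13, 3.03% on chromosome 14 and 2.99% on chromosome 1. Over the 19 chromosomes this share went with lower gene density (Spearman rho -0.71, Pearson r -0.72), a description over points that share the same libraries. The number of members per Mb did not follow gene density (Spearman rho -0.08, Pearson r -0.05).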

How the data were processed

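STAG1, STAG2 and CTCF binding was analysed in 12 libraries of NU1 cells, which the labels assign to an antibody and a state. Per the labels' protocols, each precipitation used 550 ug of chromatin and 25 ug of antibody, and fragments averaged 450 bp with 120 bp of adaptors. Per the submitters' processing notes, the build was mm10 and the tools, in no stated order, were MACS2, HOMER, BWA, Picard and bcl2fastq; for their versions nothing was given in the sources used here. Each library has its own list of peaks from the authors, so replicates were not pooled. Each deposited list gives a score, a fold enrichment (a ratio), a −log10 p-value, a −log10 q-value and a summit per peak. Per the peak names in the deposited lists, library and input were normalised, how is not stated. The input or IgG sample was not analysed here, so the background of the folds was not settled. Read depth is unknown. The lowest −log10 q of a list was 1.31 to 1.57, and the smallest peak 330 bp in each. The deposited score was not used.

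Peaks of chromosomes 1 to 19 were merged into sites by an overlap of at least 1 bp. Where several peaks of a library fell in a site, the highest fold stood for it. Fold was turned into a percentile within its list, before any limit on q or on the number of peaks. CTCF shares, and 1 CTCF percentile, were compared by exact sign flips and exact permutations over libraries, with Benjamini-Hochberg adjustment over these 4 tests and a threshold of 0.05. The tests within bins of STAG1 percentile and with the replicate block are alternatives and were not adjusted. The scripts were tested on simulated data. No test compared genes. Genes and promoters came from RefSeq GRCm38.p6 tables. Genes with no strand had both ends taken as starts. The members and lists were chosen with earlier results of these data known. Named were the 10 highest members by mean STAG1 percentile (0 where a library had no peak), the 10 highest at gene starts, the 5 highest with CTCF in all 4 and in no CTCF library, every listed gene with a member at its start up to 5 a list, the 5 genes and 3 windows with the most members, the 5 lowest members and the 5 highest sites just outside the rule; listed genes with a member inside them were added. Of the 5 genes with the most members, 1 is not reported here. Labels call the replicates biological, but p-values measure only the spread between these libraries. Alternatives were a −log10 q of at least 5 (in all lists, or with STAG2 lists in full), 20000 peaks per list, summit matching, merging of the 8 STAG lists alone, both proliferating STAG1 libraries required, no STAG2 peak within 1 kb, gene windows of 2 kb, sex chromosomes kept, and each library left out. Python 3.11.15, numpy 2.4.6, pandas 2.3.3, scipy 1.17.1 and matplotlib 3.10.9 were used.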

Additional observations from a re-analysis of the deposited data

Results flagged for a closer look

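On the sex chromosomes, which the rule leaves out, 12 sites met the same terms, STAG1 in both quiescent libraries and at least 1 proliferating one with no STAG2 peak. That is 3.01% of the 399 sites with STAG1 under the same terms there. They are listed because they lie outside the chromosomes of every comparison above.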

How the results depend on the processing

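The CTCF share at STAG1 sites without STAG2 stayed below that of the sites with both, and above that of STAG2 sites without STAG1, under all 21 alternatives run; leaving out 1 library gave differences of -32.9 to -18.3 and of 34.5 to 53.1 points, and 20000 peaks per list gave -41.5 and 28.3. Within bins of STAG1 percentile the first was -12.9. The number of members, 561, was 989 with 20000 peaks per list and 328 with both proliferating STAG1 libraries required, and 436 to 1388 when 1 library was left out. It was 1388 and 1263 without quiescent STAG1 replicate 1 and 2, and 1261 without proliferating STAG2 replicate 1, each of which also loosens the rule. The CTCF difference between the states, 0.446 points, was 0 with a −log10 q of at least 5 and with the 8 STAG lists alone, -1.01 with 20000 peaks, -0.407 with summit matching and -10.2 to 11.2 without 1 library. That of the CTCF percentile, 1.16, was -0.27 with 20000 peaks and -6.48 to 7.38 without 1 library. With the replicate number as a block, both state differences kept their value (0.446 and 1.16) at an exact permutation p = 1, the smallest possible being 0.5. Same-numbered CTCF libraries deviated in opposite ways (r = -0.257 over 247 sites), and the crossed pairing, chosen after seeing the data, also gave 0 calls. The mean STAG1 percentile, 38.7, was 65.5 with 20000 peaks, 44.2 with a −log10 q of at least 5 in all lists, 43.9 with that limit for STAG1 and CTCF only, and 33.7 to 42.8 without 1 library. The mean of each library covers only members with a peak in it. Percentiles were those of the full lists, so a limit on peaks removes low ones and raises the mean percentile by itself. The gene start share, 3.39%, was 5.46% with 20000 peaks, 19.4% with summit matching, 1.66% with no STAG2 peak within 1 kb, 7.66% with 2 kb windows, 2.65% to 4.68% without 1 library, and 2.32% with listed starts alone, an alternative chosen after seeing the data. With listed starts alone the share was 16.5% for STAG2 sites without STAG1 and 33.3% for sites with both. The causes were not tested. Lists hold no depth, so a weak STAG2 signal below the authors' limit cannot be told apart from none.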

Other observations

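Some members lay at or in genes outside the lists, and these were chosen after their values were seen. Sqle, the gene of squalene epoxidase in cholesterol synthesis, had a member 629 bp from an end of the gene and 180 bp from a STAG2 peak, with STAG1 folds of 3.75 and 3.75 in quiescent cells and 4.75 in proliferating replicate 2 and no CTCF peak. A second member nearest to Sqle, 23135 bp from an end of it, had STAG1 folds of 6.67 and 6.67 in quiescent and 12.1 and 6.04 in proliferating cells. Plk2, a polo-like kinase gene, had a member inside the gene at folds of 5.44 and 6.92 in quiescent cells and 4.94 in proliferating replicate 1, also with no CTCF peak. Nek2, the gene of a centrosomal kinase, had a member inside the gene at STAG1 folds of 4.34 and 9.0 in quiescent and 8.34 and 4.33 in proliferating cells, with CTCF in all 4 libraries. Tfap4, the gene of a helix-loop-helix transcription factor, had STAG1 folds of 6.49 and 8.98 in quiescent and 7.98 and 13.0 in proliferating cells, and CTCF folds of 8.98 and 8.48 in quiescent and 17.0 and 21.5 in proliferating cells.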
